A study of Mus musculus with 2 samples.

Results

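Skeletal muscle runs a set of energy metabolism genes in forms that predominate there, and 8 of them (Ckm, Ckmt2, Cox6a2, Mb, Eno3, Pfkm, Ampd1 and Fbp2) were followed here in brown adipose tissue. All 8 were found among the 628 genes of the deposited table by matching mouse Entrez identifiers to RefSeq symbols. They were chosen by their FPKM in 3bKO and fl/fl, the same values that are described below, so their ratios are a description and carry no test. The data were 2 RNA-seq libraries, 1 labelled 3bKO and 1 labelled fl/fl. Both are labelled as C57BL/6 brown adipose tissue after 20 weeks on a diet with 60% fat. The label 3bKO is taken here as deletion of Dnmt3b, the gene of an enzyme that sets new DNA methylation. The study calls its knockout D3bKO, and its fl/fl controls carry the same floxed Dnmt3b alleles without Cre. The study's methods describe a Ucp1-Cre model, in which Cre is expressed in brown and UCP1-positive beige adipocytes. The labels do not name the Cre line, sex or age, nor whether RNA came from 1 animal or several. The study's discussion also refers to another Dnmt3b model, made with Myf5-Cre, in which the deletion occurs early, in progenitors of brown fat and skeletal muscle. The name of the deposited table sets Myf5 against D3b as sides of a comparison. The Cre line behind the 3bKO library is therefore not known here, nor is what the libraries contrast beyond their labels.

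Each genotype had a single library, so no replicate error can be given and each ratio compares those libraries rather than the genotypes. Values are FPKM, in which the fragments of a gene are scaled by its length and by how many fragments the library had mapped. The depth of the libraries is unknown. Only genes that passed a filter of the authors, whose terms are unknown, are listed, none with an absolute log2 ratio below 0.50, and 81.5% of them were higher in 3bKO. Dnmt3b and Ucp1 are both outside the table, so neither the deletion nor the labelled tissue could be checked through them. Of 12 genes of brown adipocytes, 3 were listed (Dio2, Ppargc1a and Kcnk3), all lower in 3bKO, with a summed level of 92.7 FPKM in 3bKO and 159 FPKM in fl/fl. The study's quantitative PCR gave the other direction for Dio2 and Ppargc1a, higher in female knockouts, but on chow and in its Ucp1-Cre model. On a high-fat diet it reported higher Ucp1, Cidea and Cpt1b in that model, none of which is listed here. The study's discussion describes the phenotype of that model as opposite to that of the Myf5-Cre deletion. The Myf5-Cre deletion, it states, largely resembled brown fat knockouts of Dnmt1 or Dnmt3a, in which brown fat became skeletal myocyte-like. Since the source model of these data is unknown, the directions here and in the quantitative PCR cannot be set against each other.

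Muscle contraction spends ATP faster than mitochondria can replace it over short times. Creatine kinase bridges the gap by moving phosphate between creatine phosphate and ATP, glycolysis and glycogen supply ATP without oxygen, and myoglobin stores oxygen for the respiratory chain. When ADP builds up, AMP deaminase removes the AMP formed from it and starts the purine nucleotide cycle. Brown adipocytes arise from precursors related to those of muscle, are rich in mitochondria and also contain myoglobin, whereas their main task is to release the energy of fuel as heat.

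The genes fell into separate patterns. Ampd1, Cox6a2, Ckmt2, Ckm and Eno3 were low in fl/fl and between 6.77-fold and 56.8-fold higher in 3bKO. Mb and Pfkm were already well expressed in fl/fl and were 1.97-fold and 1.59-fold higher in 3bKO. Fbp2 was the only one of the 8 that was lower in 3bKO, at 0.534 times its fl/fl level. Thus 5 of 8 were higher by more than 2-fold, beside 47.1% of all 628 listed genes. None of the 8 was lower by more than 50%, beside 4.46% of all listed genes. Since the same values chose the genes, nothing is read from these shares. The median log2 ratio of the 8 genes was 3.59, beside 0.95 over the 605 genes above the lowest listed value of 0.01 FPKM in both libraries. All 8 stood above that value in both libraries.

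**Figure D1:**
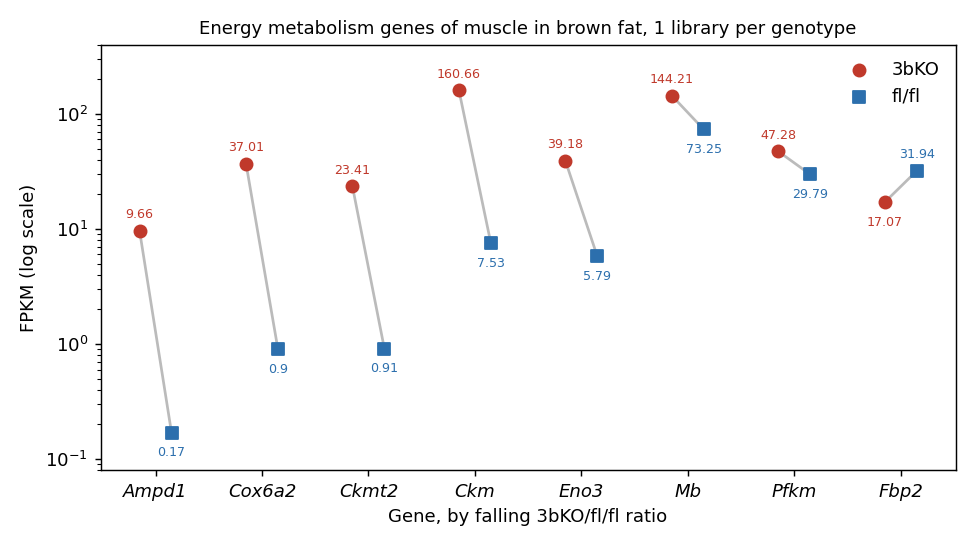
FPKM of the 8 genes (vertical axis, log scale) in the 3bKO library (circles) and the fl/fl library (squares), ordered by falling ratio, with a line joining the values of each gene; there are no error bars, since each point is 1 library. Ampd1, Cox6a2 and Ckmt2 lie below 1 FPKM in fl/fl and between 9.66 and 37.01 FPKM in 3bKO, whereas Fbp2 lies lower in 3bKO.

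**Figure D2:**
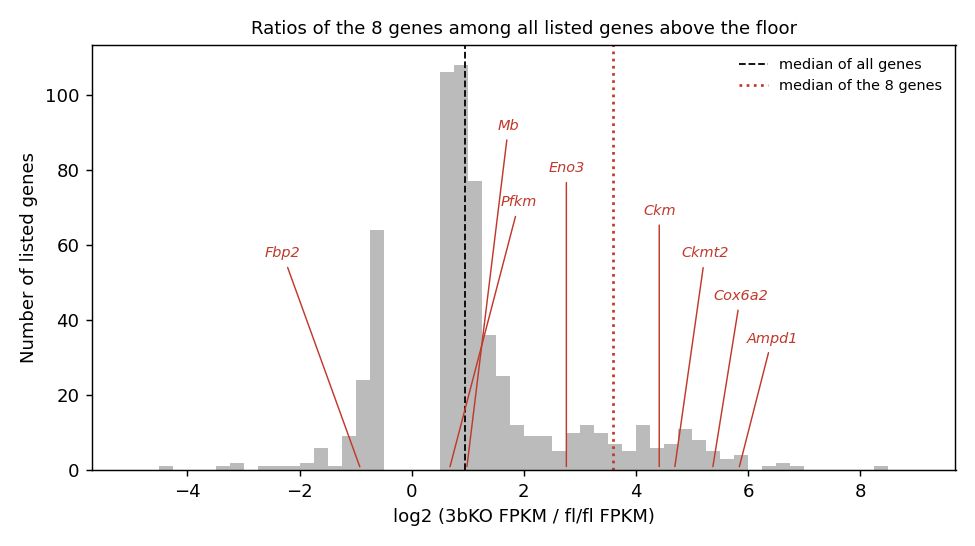
Number of listed genes (vertical axis) by log2 ratio of 3bKO over fl/fl FPKM (horizontal axis, bins of 0.25) for the 605 genes above the lowest listed value in both libraries, with the 8 genes marked. The empty middle is the range below 0.50 that the table does not cover, and the dashed and dotted lines are the medians of all genes (0.95) and of the 8 genes (3.59).

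Promoter sequence was compared because most of these genes differed in one direction and Fbp2 in the other. RefSeq (GRCm38.p6) gave 11 windows for 6 of the 8 genes, each from 250 bases before to 50 bases after an annotated start, with 3 starts for Mb, 4 for Pfkm and 1 each for Ckm, Ckmt2, Eno3 and Fbp2. Cox6a2 and Ampd1 were not matched. The E-box, CANNTG, is the motif read by myogenic transcription factors, and CAGCTG is one of its forms. Both were searched, and both read the same on either strand, so that every CAGCTG also counts as an E-box. This form was found in 6 of the 11 windows, belonging to 5 of the 6 genes, beside 16.3% of all 32851 RefSeq windows of this length. The 2 Mb windows among these 6 overlap and hold the same site. Pfkm was the gene without it. In the 250 bases before the start alone, CAGCTG was in 5 of the 11 windows, belonging to 4 genes, beside 13.0% of all windows. These shares of all windows are per window and not per gene. The more general CANNTG was in 10 of the 11 windows, beside 72.3% of all windows. The MEF2 motif, the site of another family of muscle regulators, and AAGGTCA, the core site of estrogen-related receptors, were searched on both strands and found in 0 of the 11 windows, beside 3.19% and 4.72% of all windows. The 250 bases before the start are shown for the most abundant creatine kinase and its mitochondrial partner, for the Mb start with CAGCTG nearest to it, and for Fbp2, the gene that was lower. Capitals mark CAGCTG, and positions are those of GRCm38.p6.
Ckm, chr7:19410844-19411093, plus strand: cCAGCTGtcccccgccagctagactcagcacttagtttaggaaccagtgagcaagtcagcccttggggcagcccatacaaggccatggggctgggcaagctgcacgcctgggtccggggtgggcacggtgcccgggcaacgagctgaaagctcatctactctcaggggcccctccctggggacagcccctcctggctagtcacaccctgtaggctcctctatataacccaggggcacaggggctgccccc
Ckmt2, chr13:91876886-91877135, minus strand: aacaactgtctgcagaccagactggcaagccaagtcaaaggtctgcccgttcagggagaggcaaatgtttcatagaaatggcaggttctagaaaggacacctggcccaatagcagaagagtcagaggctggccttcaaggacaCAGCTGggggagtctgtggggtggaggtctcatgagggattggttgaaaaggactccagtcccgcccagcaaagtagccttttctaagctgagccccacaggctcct
Mb, chr15:77022788-77023037, minus strand: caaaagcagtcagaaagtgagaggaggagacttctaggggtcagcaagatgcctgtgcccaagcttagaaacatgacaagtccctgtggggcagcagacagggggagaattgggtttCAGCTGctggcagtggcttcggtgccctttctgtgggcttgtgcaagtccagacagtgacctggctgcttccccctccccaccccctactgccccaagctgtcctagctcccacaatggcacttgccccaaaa
Fbp2, chr13:62858401-62858650, minus strand: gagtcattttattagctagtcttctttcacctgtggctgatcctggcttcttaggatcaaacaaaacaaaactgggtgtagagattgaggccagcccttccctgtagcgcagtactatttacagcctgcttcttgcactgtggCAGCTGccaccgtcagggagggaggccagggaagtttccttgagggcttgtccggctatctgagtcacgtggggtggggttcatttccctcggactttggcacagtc
CAGCTG began 249 bases before the start of Ckm, at the far edge of the window, and 133 bases before that start of Mb. It began 107 bases before the start in both Ckmt2, which was 25.7-fold higher in 3bKO, and Fbp2, which was lower. The match in Eno3 lay 39 bases into the transcribed side of the window. The well-known muscle enhancer of mouse Ckm lies further upstream and outside the bases shown. A match is a description of letters, and binding was not measured.

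Creatine kinase was represented by a cytosolic and a mitochondrial form. Ckm, which encodes the muscle cytosolic creatine kinase, was 160.66 FPKM in 3bKO and 7.53 FPKM in fl/fl, a log2 ratio of 4.42. It had the highest level of the 8 genes in 3bKO and only the fourth highest in fl/fl. Among all 628 genes it ranked 26 by level in 3bKO and 290 in fl/fl. Ckmt2, the sarcomeric mitochondrial form, which hands phosphate from mitochondrial ATP to creatine, was 23.41 FPKM in 3bKO and 0.91 FPKM in fl/fl, a log2 ratio of 4.69. The quotient of Ckm over Ckmt2 was 6.86 in 3bKO and 8.27 in fl/fl, so that the cytosolic form was the more abundant in both libraries. The genes for making and importing creatine and the other creatine kinases (Gatm, Gamt, Slc6a8, Ckb and Ckmt1) and Alpl gave 0 of 6 listed, and have no value here.

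Ckm lies on chromosome 7 of GRCm38.p6 from 19411094 to 19421583 on the plus strand, and Ckmt2 on the minus strand of chromosome 13 between 91853386 and 91876923. A long noncoding RNA gene, A930016O22Rik, lies on the minus strand inside Ckm, from 19417466 to 19421417, an overlap of 3952 bp. It was listed too, at 18.83 FPKM in 3bKO and 0.99 FPKM in fl/fl, a log2 ratio of 4.25, close to that of Ckm. The library protocol in the labels describes no step that marks strand, so reads of the 2 genes cannot be told apart where they overlap.

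The muscle form of a respiratory chain subunit followed the same pattern from a low level. Cox6a2 encodes the heart and muscle form of cytochrome c oxidase subunit VIa, part of the enzyme that reduces oxygen at the end of the chain. It was 37.01 FPKM in 3bKO and 0.90 FPKM in fl/fl, a log2 ratio of 5.36, or 41.1-fold. Its level was thus near that of Ckmt2 in fl/fl, where the quotient of Cox6a2 over Ckmt2 was 0.989, whereas that quotient was 1.58 in 3bKO. Cox6a2 lies on chromosome 7 from 128205435 to 128206366 and shares 70 bp at its edge with Itgad, which was not listed. Of 9 further genes of the chain and of ATP carriers, among them the common form Cox6a1, 1 was listed. This was Atp5g1, a gene for the membrane ring subunit of ATP synthase, at 20.25 FPKM in 3bKO and 5.28 FPKM in fl/fl. Slc25a31, an ATP carrier outside this list that was chosen after its values were seen, was 1.88 FPKM in 3bKO and listed at 0.01 FPKM in fl/fl.

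Oxygen storage differed far less in ratio. Mb, which encodes myoglobin, was 144.21 FPKM in 3bKO and 73.25 FPKM in fl/fl, a log2 ratio of 0.98. It was the most abundant of the 8 genes in fl/fl, where it made up 48.7% of their summed FPKM, and the next after Ckm in 3bKO, with 30.1%. In absolute terms Mb differed by 70.96 FPKM, the largest difference after that of Ckm at 153.13 FPKM. Together Ckm and Mb made up 68.3% of the difference in summed level between the libraries. The quotient of Mb over Ckm was 0.898 in 3bKO and 9.73 in fl/fl, so that the order of these genes was turned round between the libraries.

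Other listed globins differed in both directions. Cygb, which encodes cytoglobin, a globin of many tissues, was 24.38 FPKM in 3bKO and 15.41 FPKM in fl/fl, and was the only 1 listed of 12 paralogs of the 8 genes. The red blood cell globin Hbb-b1 was 170.83 FPKM in 3bKO and 366.57 FPKM in fl/fl, and Hba-a2 was 261.85 FPKM and 421.51 FPKM in the same order. Myoglobin mRNA was therefore higher in the library in which the listed hemoglobin mRNAs were lower. Mb lies on chromosome 15 from 77015487 to 77050668, and 5619 bp of it overlap Apol6, which was not listed.

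Among the enzymes of glycolysis, the muscle forms differed from one another. Eno3 encodes the muscle enolase, which makes phosphoenolpyruvate late in the pathway, and was 39.18 FPKM in 3bKO and 5.79 FPKM in fl/fl, a log2 ratio of 2.76. Pfkm encodes the muscle phosphofructokinase, which catalyses the committed step, and was 47.28 FPKM in 3bKO and 29.79 FPKM in fl/fl, a log2 ratio of 0.67. The quotient of Eno3 over Pfkm was 0.829 in 3bKO and 0.194 in fl/fl. Of 37 further genes of glycogen use and glycolysis 2 were listed, both higher in 3bKO by more than 2-fold, beside 47.1% of all 628 listed genes. Pgam2, the muscle phosphoglycerate mutase, which acts just before enolase, was 32.54 FPKM in 3bKO and 1.11 FPKM in fl/fl. Pygm, the muscle glycogen phosphorylase, was 43.61 FPKM in 3bKO and 4.41 FPKM in fl/fl. Pgam2, Pygm and Eno3 had similar levels in 3bKO, from 32.54 to 43.61 FPKM. The forms of enolase and phosphofructokinase found in other tissues (Eno1, Eno2, Pfkl and Pfkp) were not listed, so their levels are not known here.

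Eno3 lies on chromosome 11 from 70653125 to 70662513, with 3675 bp in common with Pfn1, and Pfkm on chromosome 15 from 98092589 to 98132447, with 981 bp in common with Senp1. Neither of those neighbours was listed.

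Fbp2 went the other way. It encodes the muscle fructose bisphosphatase, which runs the step opposite to phosphofructokinase and serves glycogen synthesis from lactate in muscle. It was 17.07 FPKM in 3bKO and 31.94 FPKM in fl/fl, a log2 ratio of -0.90 and a difference of -14.87 FPKM. From the lowest ratio upwards it ranked 34 among the 113 lower genes that were above the lowest listed value in both libraries. In fl/fl it was the second most abundant of the 8 genes, after Mb, and in 3bKO the second least, before Ampd1. The quotient of Pfkm over Fbp2 was 2.77 in 3bKO and 0.933 in fl/fl. The gene of the forward step was thus the more abundant in 3bKO, and the genes of both steps were near each other in fl/fl. Fbp2 lies on chromosome 13 from 62836884 to 62858400, and no other annotated gene overlaps it. Fbp1, the liver form, was not listed.

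The purine nucleotide cycle had 2 genes listed, which differed widely from each other. Ampd1, which encodes the muscle AMP deaminase, was 9.66 FPKM in 3bKO and 0.17 FPKM in fl/fl, a log2 ratio of 5.83. It was the least abundant of the 8 genes in both libraries. Because the table gives 2 decimals, rounding alone allows a ratio between 55.2 and 58.6. Its log2 ratio was the largest of the 8 as deposited, but was 5.18 with a pseudocount of 0.1 FPKM and 3.19 with 1 FPKM, below that of Cox6a2 at 5.21 and 4.32 under the same settings. Adssl1, the muscle adenylosuccinate synthetase, which acts on the product of AMP deaminase, was 29.68 FPKM in 3bKO and 19.11 FPKM in fl/fl, a log2 ratio of 0.64. It was the only 1 of 10 further genes of this cycle and of adenylate conversion that was listed. Ampd1 lies on chromosome 3 from 103073897 to 103099720 and is overlapped by no other annotated gene.

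The ratio and the fl/fl level of a gene share a value, so genes that are low in fl/fl tend towards large ratios. The 3 genes under 1 FPKM in fl/fl (Ampd1, Ckmt2 and Cox6a2) had the 3 largest ratios, and the 3 genes above 29 FPKM in fl/fl (Pfkm, Fbp2 and Mb) had the 3 ratios nearest to 1. In differences of FPKM the order was another one. The difference was 153.13 for Ckm, 70.96 for Mb, 36.11 for Cox6a2, 33.39 for Eno3, 22.5 for Ckmt2, 17.49 for Pfkm and 9.49 for Ampd1. Mb thus had a small ratio and a large difference, and Ampd1 the reverse.

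**Figure D3:**
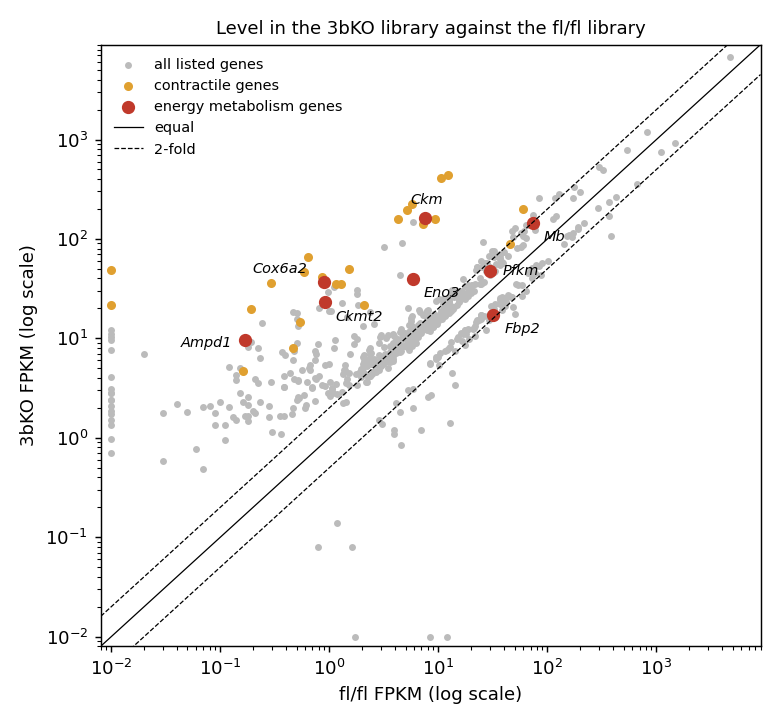
FPKM in 3bKO (vertical axis, log scale) against FPKM in fl/fl (horizontal axis, log scale) for all 628 listed genes (grey), 23 contractile genes of skeletal muscle (orange) and the 8 energy metabolism genes (red), with lines for equal levels and for 2-fold differences. Ckm, Cox6a2, Ckmt2, Ampd1 and Eno3 lie far above the 2-fold line, Mb and Pfkm between the lines, and Fbp2 below the line of equal levels.

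The listed markers of skeletal muscle and of macrophages were higher in 3bKO. All 23 contractile genes of the list used here were listed and higher in 3bKO, 22 of them by more than 2-fold. The marker lists were written with earlier results of these data known, and the table holds only genes that passed the filter. The counts from these lists are therefore a description and carry no test. Of all 628 listed genes, 81.5% were higher in 3bKO, and 47.1% were higher by more than 2-fold. The contractile genes had a summed level of 2467 FPKM in 3bKO and 169.5 FPKM in fl/fl. Of these, 2 (Tnnt1 and Myl3) stood at the lowest listed value in fl/fl and none in 3bKO. Over the members above that value, the median log2 ratio was 4.91 for 12 fast fibre genes, all listed, and 6.68 for the slow fibre genes, of which 7 of 8 were listed. Of 7 heart genes and of 7 myogenic regulators and developmental myosins, 0 were listed. Of 9 macrophage genes 7 were listed, all of them higher in 3bKO, with 5 past 2-fold. Their median log2 ratio was 1.14, beside 0.95 over all genes above the lowest listed value in both libraries. Their summed level was 388 FPKM in 3bKO and 176 FPKM in fl/fl, and none stood at the lowest listed value. The part that muscle tissue or macrophages in the sampled pad may have in the values of the 8 genes was not tested, and more muscle cells and more RNA per cell cannot be told apart in RNA from whole tissue.

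The log2 ratios of the 8 genes ran from -0.90 to 5.83, with a median of 3.59. Those of the contractile genes above the lowest listed value ran from 0.97 to 6.95, with a median of 5.04. The lowest log2 ratios on the contractile list were 0.97 for Des, close to that of Mb, 1.74 for Myl1 and 3.36 for Actn2. The summed level of the 8 was 478 FPKM in 3bKO and 150 FPKM in fl/fl, 3.18-fold higher in 3bKO, though 14.6-fold was the ratio of the contractile sum, so that relative to the contractile genes the sum of the 8 was lower in 3bKO (log2 ratio -2.19). Taken against Acta1, the skeletal muscle actin, Ckm had a quotient of 0.39 in 3bKO and 0.714 in fl/fl. Scaling to the contractile sum takes the same 3.86 from each log2 ratio and leaves the order of the genes as it was.

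**Figure D4:**
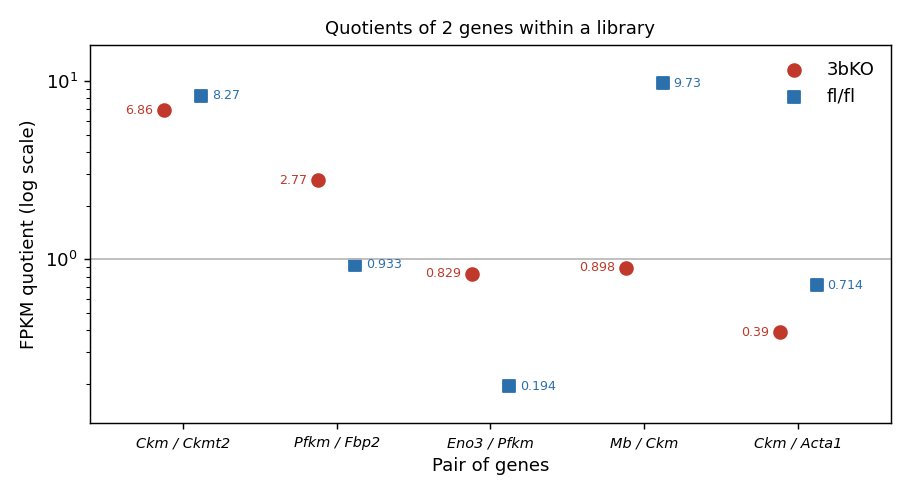
Quotient of the FPKM of 2 genes within a library (vertical axis, log scale) for 5 pairs, in 3bKO (circles) and fl/fl (squares), with a grey line at 1. Pfkm over Fbp2 is 2.77 in 3bKO and 0.933 in fl/fl, Mb over Ckm is 0.898 and 9.73 in the same order, and Ckm over Ckmt2 differs least, at 6.86 and 8.27.

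By ratio, the 5 other genes not below 1 FPKM in either library that came nearest to the median of the 8 (log2 ratio 3.59) were H19, Klhl41, Actn2, Pygm and Casq1. Their log2 ratios ran from 3.31 for Pygm to 3.97 for Casq1, and this likeness rests on 2 libraries only. H19, an imprinted noncoding RNA, was 21.5 FPKM in 3bKO and 1.82 FPKM in fl/fl, and Casq1, which stores calcium in fast fibres, was 27.87 FPKM in 3bKO and 1.78 FPKM in fl/fl. Reads shared with close relatives were checked on GENCODE transcripts. Of the stretches of 50 bases in the transcripts of the 8 genes, 0 occurred in transcripts of any other protein-coding gene.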

How the data were processed

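Oligo(dT)-selected RNA of brown adipose tissue was sequenced in 1 library per genotype. The authors deposited FPKM values for 628 selected genes, and the submitters' processing notes name RSEM and mm10, without a version. The filter that selected the genes and the sequencing depth are not given in the sources used here. The study's methods describe mm9, SOAPaligner/SOAP2 and RPKM for an experiment on chow, and thus another route. Columns were assigned to genotypes by their headings, which hold the sample titles.

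Identifiers were paired with RefSeq symbols of GRCm38.p6, the same assembly as mm10, which named 627 of 628. Ratios are 3bKO over fl/fl FPKM with no pseudocount, and none is given for a gene at 0.01 FPKM in a library. Genes higher by more than 2-fold, or lower by more than 50%, were counted, following the fold thresholds of the study. No p-value or interval was computed, since each genotype has 1 library. The 8 genes and all lists were chosen with earlier results of these data known. Genes named are the 8, their paralogs and list members in the table, and the 5 nearest to their median ratio. A930016O22Rik, Slc25a31 and the genes of the other observations were chosen after their values were seen. Alternatives were pseudocounts of 0.1 and 1, a minimum of 1 FPKM in both libraries, other fold thresholds, scaling to contractile genes and a shorter promoter window. The ratio and motif steps were tested on simulated data, which held no fl/fl level as low as that of Ampd1. Protein comparisons were planned but not run. Calculations used Python 3.11.15, pandas 2.3.3, NumPy 2.4.6 and Matplotlib 3.10.9.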

Additional observations from a re-analysis of the deposited data

How the results depend on the processing

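Adding a pseudocount of 0.1 changed the ratio of 1 of the 8 genes, Ampd1, by more than 1.5-fold, and a pseudocount of 1 did so for 3. Scaling to the contractile genes lowered every log2 ratio by 3.86, which turned those of Mb (-2.89), Eno3 (-1.10) and Pfkm (-3.20), the median (-0.28) and the summed level (-2.19) below 0, as the size of that shift alone gives. The median was 2.88 after adding 1 FPKM throughout. A minimum of 1 FPKM in both libraries removes the 3 genes with the largest ratios, and gave a median of 0.98 and 2 genes past 2-fold, Ckm and Eno3, against 5 without it. The other fold thresholds kept between 4 and 7 of the 8. Over all listed genes, 296 passed 2-fold, whereas 468 passed 1.5-fold, 175 passed 3-fold, 148 passed 4-fold, 100 passed 10-fold, and 174 passed 2-fold under the minimum. Leaving out Mb or Ckm, alternatives chosen after seeing the data, gave a log2 ratio of the sum of 2.12 or 1.15. No paired analysis was possible because each genotype has 1 library. How far these ratios vary between animals cannot be known from 1 library each.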

Other observations

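Other genes of fuel use in the table, chosen after their values were seen, went both ways, and are given as single values beside the 81.5% of all listed genes that were higher in 3bKO. Slc25a12, the aspartate-glutamate carrier of the malate-aspartate shuttle, which brings reducing equivalents from glycolysis into mitochondria, was 5.46 FPKM in 3bKO and 2.04 FPKM in fl/fl. The transaminases of that shuttle differed less. Got1 was 29.26 FPKM in 3bKO and 19.8 FPKM in fl/fl, and Got2 was 27.19 FPKM in 3bKO and 17.9 FPKM in fl/fl. Ppp1r3a, which targets protein phosphatase to glycogen in muscle, was 1.52 FPKM in 3bKO and 0.14 FPKM in fl/fl. Others were lower in 3bKO. Pdk4, the kinase that shuts pyruvate dehydrogenase, was 747 FPKM in 3bKO and 1093 FPKM in fl/fl. Glycerol kinase, Gk, was 88.73 FPKM in 3bKO and 140.78 FPKM in fl/fl, and Acss1, a mitochondrial acetyl-CoA synthetase, was 53.1 FPKM in 3bKO and 83.09 FPKM in fl/fl. Pdk4, Gk and Acss1 all differed by less than 2-fold.

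Nnt, the mitochondrial transhydrogenase that makes NADPH, was 2.14 FPKM in 3bKO and 0.61 FPKM in fl/fl, a log2 ratio of 1.81. As background, C57BL/6J mice carry an inherited deletion in Nnt that other C57BL/6 substrains lack, and the labels give the strain only as C57BL/6. Whether the libraries differ in substrain was not tested.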
